A study of Homo sapiens with 9 samples.

Results

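The transforming growth factor beta (TGF-beta) genes described here are 9 genes chosen by symbol for their roles in the pathway: the ligands TGFB1 and TGFB2, the latent ligand binding protein LTBP1, the receptors TGFBR1 and TGFBR2, the signal transducer SMAD3, the feedback genes SMAD7 and SKIL, and the target gene TGFBI. All 9 were found among the 61541 gene IDs of the count tables, and all 9 passed the filter on low counts that left 15997 genes for testing. H69 cells, an immortalised line of human intrahepatic cholangiocytes (the cells that line bile ducts), were measured by poly(A) RNA sequencing in 9 libraries, 3 per group. The first group received recombinant human laminin 511-E8 at 0.25 µg/cm2, an integrin-binding fragment of a basement membrane laminin. The second received acetazolamide at 10 µM, a carbonic anhydrase inhibitor, and the Ctrl group received 10 µl of DMSO. The sample labels used here give a DMSO volume for Ctrl only. Cells of all groups carried the unmodified genotype of the line, grew for 48 h before treatment and were harvested after 48 h of it, with the medium renewed at 24 h. All libraries came from this 1 cell line, and those sequenced were the replicates of each group with the best RNA integrity.

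TGF-beta ligands are secreted as latent complexes that latent TGF-beta binding proteins anchor in the extracellular matrix, and integrins and proteases release them. The freed ligand joins the type II receptor (TGFBR2) to the type I receptor (TGFBR1), whose kinase phosphorylates SMAD2 and SMAD3, and these enter the nucleus with SMAD4 to regulate transcription. SMAD7 blocks the type I receptor and SKIL (SnoN) represses SMAD complexes, and both are themselves induced by the pathway. In the liver, bile duct cells are among the sources of the ligands, and the pathway is best known there for matrix deposition in biliary fibrosis.

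The 9 libraries differed with the base composition of the transcripts, and the TGF-beta genes lie on both sides of that difference, so 1 coding stretch each of the 4 genes used to show it is printed first. Each stretch has 90 bases, lies within 1 coding exon of the transcript with the longest coding sequence, and was the one whose share of G and C is nearest that of the whole gene (GRCh38, GENCODE release 29). The sequences run 5′ to 3′ on the coding strand, with every G and C in capitals.
SKIL: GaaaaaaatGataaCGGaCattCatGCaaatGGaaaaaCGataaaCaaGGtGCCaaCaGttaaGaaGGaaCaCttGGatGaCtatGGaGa
TGFBR1: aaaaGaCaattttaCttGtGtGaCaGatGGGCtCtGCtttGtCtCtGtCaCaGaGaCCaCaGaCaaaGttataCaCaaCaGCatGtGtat
TGFB2: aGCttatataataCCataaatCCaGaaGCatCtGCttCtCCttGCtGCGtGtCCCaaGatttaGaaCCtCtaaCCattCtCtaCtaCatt
TGFB1: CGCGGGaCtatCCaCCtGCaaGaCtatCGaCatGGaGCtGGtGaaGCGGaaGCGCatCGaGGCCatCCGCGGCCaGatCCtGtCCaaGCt
The SKIL stretch (chr3:170360418-170360507, + strand, exon 2 of 7) holds 36.7% G and C (33 of its bases). The TGFBR1 stretch (chr9:99128883-99128972, + strand, exon 2 of 9) holds 36 G and C, and the TGFB2 stretch (chr1:218441210-218441299, + strand, exon 8 of 8) holds 38.9% G and C. The TGFB1 stretch (chr19:41352875-41352964, - strand, exon 1 of 7) holds 61.1% G and C, so this ligand stands apart from the other ligand and from its type I receptor in composition. Over all exons the GC content was 37.2% for SKIL, 38.9% for TGFB2, 39.7% for TGFBR1, 47.2% for TGFBR2, 47.9% for LTBP1, 51.3% for TGFBI, 54.0% for SMAD3, 56.7% for SMAD7 and 61.4% for TGFB1.

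Total counts ranged from 12529867 to 39518899 per library, so that the limit of 3 counts lay between 0.0759 and 0.239 CPM (counts relative to the library total), which covers counting error only. Mitochondrial genes took 9.43 to 16.2% of the counts, with the highest share in Ctrl replicate 2. After TMM scaling, a GC trend remained: genes of 40% GC lay 0.28 above the 9-library level on the log2 scale in acetazolamide replicate 2, 0.44 below it in acetazolamide replicate 3 and 0.27 below it in laminin 511-E8 replicate 2, and genes of 60% GC lay on the opposite side in each of these libraries (-0.30, 0.36 and 0.26). The other 6 libraries stayed within -0.19 and 0.16 at both points. Every comparison was therefore also computed with the trend of each library removed, and those values stand beside the main ones. Of the 8 cholangiocyte markers, 6 had at least 10 counts in every library of each group. Their summed level was 2802 to 3164 CPM in laminin 511-E8 cells, 3329 to 4009 CPM in acetazolamide cells and 3254 to 3906 CPM in Ctrl, so laminin 511-E8 libraries lay below all Ctrl libraries. The 10 fibroblast markers summed to 106 to 153 CPM in laminin 511-E8 cells and 92.2 to 164 CPM in acetazolamide cells. In Ctrl the sum was 113 to 131 CPM, most of it from THY1 (mean 62.3 CPM) and COL1A1 (43.9 CPM). PDGFRB (6.30 CPM in Ctrl) and ACTA2 (6.76 CPM) were also detected throughout, while COL3A1, LUM and POSTN stood at 0. The part of the marker genes in the results below was not tested. In bulk RNA, fewer cells that express a gene and less RNA of it per cell cannot be told apart.

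All 9 genes were detected in every library. Levels of different genes are given in TPM, for which counts are divided by exon length and scaled to a common total, and in Ctrl they spanned 159 ± 30.0 TPM for TGFBI to 1.61 ± 0.48 TPM for SMAD7 (SD, n = 3). When 13650 genes that reached 10 counts in each Ctrl library were ranked by TPM (median 15.8 TPM), TGFBI stood at percentile 95.2, TGFBR2 at 92.5, TGFBR1 at 81.6, SKIL at 74.4, TGFB2 at 67.9, TGFB1 at 61.8, SMAD3 at 59.98, LTBP1 at 46.9 and SMAD7 at 8.8. The target gene and both receptors thus led the order, and the inhibitory SMAD closed it. The first 4 places (TGFBI, TGFBR2, TGFBR1, SKIL) and the last 2 (LTBP1, SMAD7) were the same in all 3 groups by mean TPM. Between them, TGFB2, TGFB1 and SMAD3 changed places. In Ctrl, TGFB2 exceeded TGFB1 by 0.37 ± 0.33 and TGFB1 exceeded SMAD3 by 0.09 ± 0.17 on the log2 TPM scale. Each held in 2 of 3 libraries, so these neighbours did not keep their order in every Ctrl library. SKIL also could not be placed apart from the gene below it in laminin 511-E8 cells (0.25 ± 0.41 above TGFB2) or in acetazolamide cells (0.29 ± 1.02 above TGFB1).

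TGFB2 was the higher of the 2 ligands in 2 of 3 Ctrl libraries. TGFB1, the most widely expressed TGF-beta ligand (ENSG00000105329, chr19:41301587-41353911, - strand), averaged 24.1 ± 5.68 TPM in laminin 511-E8 cells, 27.6 ± 6.99 TPM in acetazolamide cells and 24.6 ± 6.03 TPM in Ctrl (SD, n = 3 each). TGFB2, the ligand that needs the co-receptor TGFBR3 for efficient receptor binding (ENSG00000092969, chr1:218346235-218444619, + strand), averaged 28.4 ± 1.38 TPM in laminin 511-E8 cells, 26.1 ± 4.76 TPM in acetazolamide cells and 31.2 ± 0.43 TPM in Ctrl. Over the 9 libraries the geometric mean ratio of TGFB2 to TGFB1 was 1.14, with a range of 0.597 to 1.52, and TGFB2 was the higher in 6 of 9 libraries. The remaining ligand, TGFB3, was far lower, with TGFB2 18.2 times its level (10.5 to 27.3 over the libraries). TGFB1 shares 215 exon bases with HNRNPUL1 on the opposite strand and had 5433 counts over the 9 libraries, against 100118 for HNRNPUL1. Whether the counting used strand is not stated in the sources at hand, so reads from the shared bases cannot be assigned with certainty. Such antisense overlap was small in counts for SMAD3 (182 bases with AC087482.1, which had 23 counts) and LTBP1 (249 bases with AC019127.1, 12 counts). TGFB2 shares 1371 of its 5151 exon bases with TGFB2-OT1 on the same strand, which had 0 counts. Reads in bases that both genes hold may have been left uncounted, so the TGFB2 level and its ratio to TGFB1 are uncertain to that extent.

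To compare a gene between libraries, TMM-scaled CPM is used from here on. TGFB1 had 21.6, 31.0 and 22.2 CPM in the laminin 511-E8 libraries, 24.9, 21.6 and 36.1 CPM in the acetazolamide libraries and 22.2, 25.6 and 29.7 CPM in the Ctrl libraries. Laminin 511-E8 replicate 2 and acetazolamide replicate 3 were high, and all 3 groups overlapped. The log2 fold change of TGFB1 was -0.04 ± 0.22 (SE) for laminin 511-E8 against Ctrl and 0.09 ± 0.22 for acetazolamide against Ctrl, and -0.04 ± 0.09 and -0.005 ± 0.09 with the GC trend removed.

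TGFB2 had 48.1, 43.2 and 49.8 CPM in the laminin 511-E8 libraries, 42.2, 47.5 and 34.3 CPM in the acetazolamide libraries and 50.2, 61.9 and 47.2 CPM in the Ctrl libraries. Acetazolamide replicate 3 was the lowest library and Ctrl replicate 2 the highest, and the highest acetazolamide library (47.5 CPM) lay above the lowest Ctrl library (47.2 CPM). On the TPM scale, which has no TMM scaling, acetazolamide libraries (21.2 to 30.66 TPM) and laminin 511-E8 libraries (26.8 to 29.2 TPM) lay below the Ctrl libraries (30.70 to 31.5 TPM), by a margin under 0.1 TPM at the nearest point. For acetazolamide against Ctrl the log2 fold change was -0.36 ± 0.16 (95% interval -0.71 to -0.01), with an unadjusted p of 0.0428 and an adjusted p of 1.00 in edgeR's quasi-likelihood test with Benjamini-Hochberg adjustment. With the GC trend removed it was -0.19 ± 0.12 (-0.46 to 0.08), with an unadjusted p of 0.149 in the same test. Over 31 alternative settings the TGFB2 value for this comparison ran between -0.47 and -0.08 and its adjusted p between 0.481 and 1, and it passed in none of them. The laminin 511-E8 difference from Ctrl was smaller, at -0.18 ± 0.15.

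LTBP1, which ties latent TGF-beta to the matrix (ENSG00000049323, chr2:32946972-33399509, + strand), had 32.3, 35.3 and 32.0 CPM in the laminin 511-E8 libraries, 34.7, 29.1 and 38.8 CPM in the acetazolamide libraries and 35.3, 32.5 and 33.2 CPM in the Ctrl libraries. The groups overlapped, and the acetazolamide libraries enclosed all others. Its log2 fold changes against Ctrl were close to 0: -0.02 (95% interval -0.31 to 0.27) for laminin 511-E8 and 0.02 (-0.27 to 0.31) for acetazolamide.

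The type II receptor was the more abundant receptor in every library. TGFBR2, the ligand-binding kinase (ENSG00000163513, chr3:30606502-30694142, + strand), averaged 117 ± 3.14 TPM in laminin 511-E8 cells, 119.9 ± 4.79 TPM in acetazolamide cells and 116 ± 19.1 TPM in Ctrl. TGFBR1, the kinase that phosphorylates SMAD2 and SMAD3 (ENSG00000106799, chr9:99104038-99154192, + strand), averaged 51.4 ± 10.4 TPM in laminin 511-E8 cells, 49.3 ± 16.5 TPM in acetazolamide cells and 54.1 ± 11.9 TPM in Ctrl. The ratio of TGFBR2 to TGFBR1 in TPM was 2.33 over the 9 libraries (1.72 to 3.53), and the co-receptor TGFBR3 lay below both, at 8.41 ± 2.30 TPM in Ctrl.

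TGFBR2 had 170, 174 and 184 CPM in the laminin 511-E8 libraries, 180, 163 and 178 CPM in the acetazolamide libraries and 187, 174 and 174 CPM in the Ctrl libraries. With TMM scaling it spread least of the 9 genes: its highest library was 1.147 times its lowest, and its SD within groups was 0.07 on the log2 scale, at percentile 2.69 of all genes with a known GC content. With the GC trend removed the ratio was 1.179 and the SD 0.08 (percentile 15.7), and SMAD3 had an SD as low (0.08). Its log2 fold change was -0.02 (95% interval -0.23 to 0.19) for laminin 511-E8 against Ctrl and -0.04 (-0.25 to 0.17) for acetazolamide against Ctrl. With TMM scaling, these intervals bound any difference in TGFBR2 more tightly than for any other of the 9 genes.

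TGFBR1 had 122, 84.5 and 133 CPM in the laminin 511-E8 libraries, 98.8, 137 and 73.3 CPM in the acetazolamide libraries and 133, 108 and 118 CPM in the Ctrl libraries. Laminin 511-E8 replicate 2 and acetazolamide replicate 3 were low and acetazolamide replicate 2 was high, the same 3 libraries that stood apart by GC content. The log2 fold change was -0.08 (95% interval -0.60 to 0.44) for laminin 511-E8 and -0.21 (-0.73 to 0.30) for acetazolamide, each against Ctrl. With the GC trend removed, the intervals narrowed to -0.21 to 0.14 for laminin 511-E8 and -0.28 to 0.07 for acetazolamide.

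SMAD3, the receptor-activated transducer most tied to TGF-beta target transcription (ENSG00000166949, chr15:67063763-67195195, + strand), exceeded its close relative SMAD2 1.59 times in TPM (1.16 to 2.25, 9 of 9 libraries). Before division by exon length the order of the group means was the reverse in all 3 groups. In Ctrl, SMAD2 averaged 176 CPM and SMAD3 66.4 CPM of the library total. The TPM order thus rests on the lengths used, which count every annotated exon base of a gene. SMAD3 had 70.7, 73.0 and 73.2 CPM in the laminin 511-E8 libraries, 63.2, 57.9 and 77.5 CPM in the acetazolamide libraries and 66.7, 65.8 and 71.0 CPM in the Ctrl libraries. The laminin 511-E8 libraries were close together, and their lowest fell just below the highest Ctrl library. The log2 fold change against Ctrl was 0.09 ± 0.12 for laminin 511-E8 and -0.04 ± 0.12 for acetazolamide. Between laminin 511-E8 and acetazolamide cells it was 0.13 ± 0.12, and with the GC trend removed 0.18 ± 0.07 (95% interval 0.03 to 0.34), with an unadjusted p of 0.0257 and an adjusted p of 0.812 in edgeR's quasi-likelihood test.

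The feedback genes lay far apart in level. SMAD7, which recruits ubiquitin ligases to the type I receptor (ENSG00000101665, chr18:48919853-48952052, - strand), had 63, 56 and 104 reads in the laminin 511-E8 libraries, 101, 63 and 65 reads in the acetazolamide libraries and 81, 37 and 38 reads in the Ctrl libraries. These were 3.63, 2.57 and 2.73 CPM in laminin 511-E8 cells, 2.83, 2.55 and 3.81 CPM in acetazolamide cells and 2.67, 2.15 and 2.98 CPM in Ctrl. The groups overlapped, and the 95% intervals were -0.33 to 0.69 around a log2 fold change of 0.18 for laminin 511-E8 against Ctrl, and -0.29 to 0.72 around 0.22 for acetazolamide against Ctrl. Any change of SMAD7 within these intervals remained compatible with these libraries. SMAD3 was 13.3 times and SKIL 19.9 times the SMAD7 level in TPM, above it in 9 of 9 libraries each.

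SKIL, the SMAD co-repressor (ENSG00000136603, chr3:170357678-170396835, + strand), had 95.6, 56.2 and 111 CPM in the laminin 511-E8 libraries, 78.1, 124 and 50.8 CPM in the acetazolamide libraries and 104, 96.0 and 100.0 CPM in the Ctrl libraries. The Ctrl libraries were nearly equal and the treated ones lay on both sides of them. In the acetazolamide group the highest library was 2.44 times the lowest, in the laminin 511-E8 group 1.97 times and in Ctrl 1.09 times. The log2 fold change against Ctrl was -0.19 (95% interval -0.89 to 0.50) for laminin 511-E8 and -0.25 (-0.94 to 0.45) for acetazolamide, the widest intervals of the 9 genes with TMM scaling. Its relative SKI was lower in 7 of 9 libraries, with SKIL at 1.47 times the SKI level in TPM.

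TGFBI, a secreted matrix protein induced by TGF-beta (ENSG00000120708, chr5:136028895-136063818, + strand), was the most abundant of the set, at 178 ± 24.9 TPM in laminin 511-E8 cells, 178 ± 23.2 TPM in acetazolamide cells and 159 ± 30.0 TPM in Ctrl. It had 427, 503 and 408 CPM in the laminin 511-E8 libraries, 441, 358 and 486 CPM in the acetazolamide libraries and 410, 383 and 415 CPM in the Ctrl libraries. Laminin 511-E8 replicate 2 was the highest and acetazolamide replicate 2 the lowest library, and the groups overlapped. The log2 fold change was 0.15 (95% interval -0.14 to 0.44) for laminin 511-E8 and 0.09 (-0.20 to 0.38) for acetazolamide, and 0.10 (-0.08 to 0.27) and 0.01 (-0.16 to 0.19) with the GC trend removed.

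None of the 9 genes passed an adjusted p of 0.05 in any of the 3 comparisons by edgeR's quasi-likelihood test, and none did so under any of the 31 alternatives of each comparison, where the lowest adjusted p was 0.481. After adjustment the test called 0% of all 15997 genes in each comparison. An unadjusted p under 0.05 was reached by 0 of the 9 genes for laminin 511-E8 against Ctrl (2.84% of all genes, 454), by 1 of 9, TGFB2, for acetazolamide against Ctrl (1.83%, 292 genes) and by 0 of 9 for laminin 511-E8 against acetazolamide (2.34%, 374 genes). With the GC trend removed, the adjusted test again called none of the 9, while it called 0.33% of all genes (52 of 15737) for laminin 511-E8 against Ctrl, 0% for acetazolamide against Ctrl and 0.159% (25 genes) for laminin 511-E8 against acetazolamide. In that fit an unadjusted p under 0.05 was reached by 0 of 9 for laminin 511-E8 against Ctrl (7.84% of all genes), 0 of 9 for acetazolamide against Ctrl (4.75%) and 1 of 9, SMAD3, for laminin 511-E8 against acetazolamide (5.36%). The groups compared overlapped in TMM-scaled CPM for all 9 genes in all 3 comparisons. Over all genes they did not overlap for 8.65% in laminin 511-E8 against Ctrl, 5.31% in acetazolamide against Ctrl and 6.13% in laminin 511-E8 against acetazolamide.

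By sign, 3 of the 9 genes were higher and 6 lower in laminin 511-E8 cells than in Ctrl, with a median log2 fold change of -0.02, beside -0.003 for all genes. In acetazolamide cells 4 were higher and 5 lower than in Ctrl, with a median of -0.04 beside 0.005 for all genes. Against acetazolamide cells, 6 were higher and 3 lower in laminin 511-E8 cells, with a median of 0.05 beside 0.002. Both comparisons with Ctrl used the same 3 Ctrl libraries, and all intervals of the 9 genes in these included 0 except that of TGFB2 for acetazolamide.

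The 9 genes differed in how far their values spread between libraries of 1 group, and in how much of that spread went with the GC trend. The SD within groups was 0.48 for SKIL, 0.34 for TGFBR1 and 0.30 for TGFB1 on the log2 scale of TMM-scaled CPM, against a median of 0.27 over all genes with a known GC content. With the trend removed it was 0.14 for SKIL, 0.10 for TGFBR1 and 0.10 for TGFB1, that is 91.4%, 90.6% and 89.8% less variance, and the median of all genes was 0.15. The ratio of the highest to the lowest acetazolamide library of SKIL came down to 1.23 and that of the laminin 511-E8 libraries to 1.27, while Ctrl stayed at 1.11. The AT-rich SKIL and TGFBR1 and the GC-rich TGFB1 moved in opposite directions in the same libraries: in acetazolamide replicate 3 SKIL and TGFBR1 had their lowest and TGFB1 its highest value of all 9 libraries.

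TGFB2, with a GC content between those of SKIL and TGFBR1, also had its lowest value in acetazolamide replicate 3. Its spread within groups hardly changed, however, with an SD of 0.19 before and 0.18 after removal of the trend, a reduction in variance of 6.81%. After removal, acetazolamide replicate 3 (5.60 on the log2 scale) and laminin 511-E8 replicate 2 (5.76) were the highest TGFB2 libraries of their groups. The SD of SMAD7 was 0.26 both before and after, that of LTBP1 0.13 before and 0.14 after, and that of TGFBR2 0.07 before and 0.08 after. SMAD3 (64.8% less variance) and TGFBI (58.8% less) lay between. The TGFB2 to TGFB1 ratio in TPM, between an AT-rich and a GC-rich gene, had its lowest value (0.597) in acetazolamide replicate 3.

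**Figure D1:**
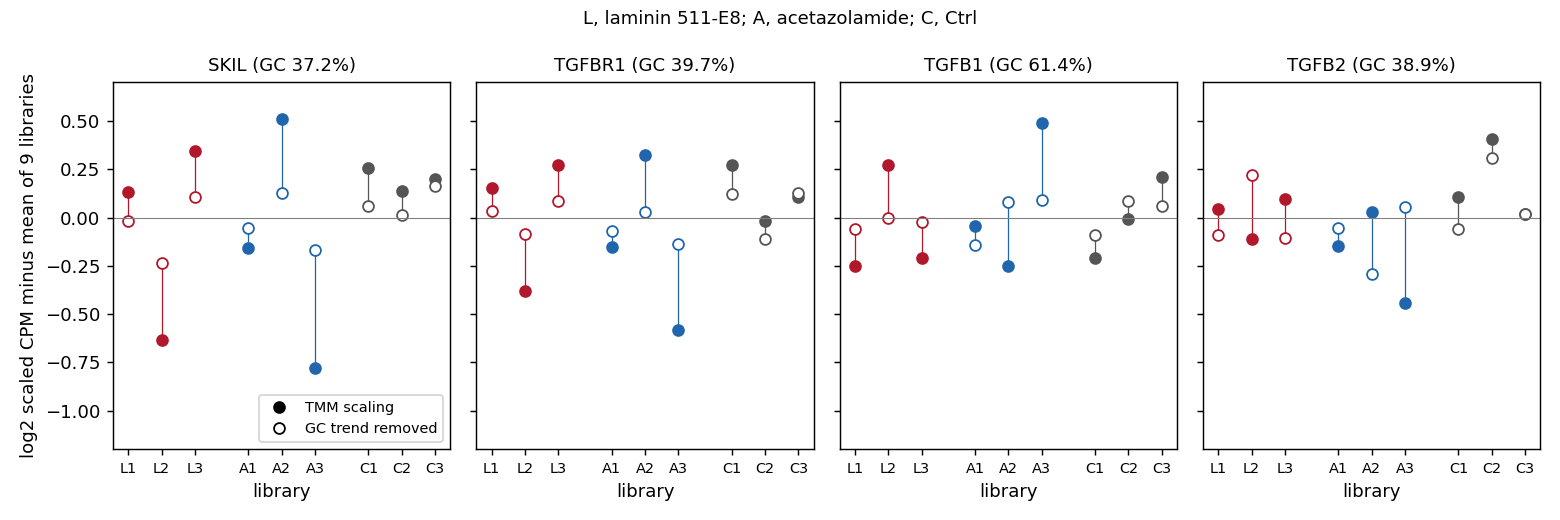
Log2 TMM-scaled CPM of SKIL, TGFBR1, TGFB1 and TGFB2 in each library, as the difference from the gene's mean over the 9 libraries, before (filled) and after (open) removal of the library's GC trend; L is laminin 511-E8, A acetazolamide and C Ctrl, with the replicate number. The points of SKIL, TGFBR1 and TGFB1 draw together and their largest shifts are in A2, A3 and L2. Those of TGFB2 draw together less over the 9 libraries (the highest over the lowest is 1.804 before and 1.515 after). Within groups this TGFB2 ratio falls from 1.384 to 1.273 in acetazolamide and from 1.312 to 1.289 in Ctrl, and rises from 1.153 to 1.254 in laminin 511-E8.

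The wider pathway was read from a list of 60 other genes in 4 roles, chosen with earlier results of these data known. Of these, 52 passed the filter on low counts. The 8 that did not were LRRC32, which holds latent ligand on cell surfaces, ITGB6, the epithelial integrin chain that activates it, the receptors ENG and ACVRL1, the decoy receptor BAMBI, the SMAD inhibitor LDLRAD4 and the targets ID3 and ANGPTL4. In Ctrl the highest members of each role by TPM were THBS1, an activator of latent ligand (344 ± 55.1), and ITGAV, the integrin chain that binds it (92.3 ± 21.5), FKBP1A, which keeps the type I receptor inactive (253 ± 48.4), STRAP, which stabilises the SMAD7 and receptor complex (268 ± 42.8), and the target ID1, an inhibitor of helix-loop-helix factors (337 ± 99.7). None of the 52 genes passed the adjusted test of edgeR in any comparison without removal of the GC trend, where an unadjusted p under 0.05 was reached by 6 of 52 for laminin 511-E8 against Ctrl (2.84% of all genes), 2 for acetazolamide against Ctrl (1.83%) and 4 for laminin 511-E8 against acetazolamide (2.34%). Once the trend was removed, these counts were 14 (7.84% of all genes) for laminin 511-E8 against Ctrl, 4 (4.75%) for acetazolamide against Ctrl and 9 (5.36%) for laminin 511-E8 against acetazolamide. In laminin 511-E8 cells 24 were higher and 28 lower than in Ctrl, with a median log2 fold change of -0.02, beside -0.003 for all genes, and in acetazolamide cells 25 were higher and 27 lower than in Ctrl, with a median of -0.01, beside 0.005.

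By role, all 6 listed genes with an unadjusted p under 0.05 without removal of the trend for laminin 511-E8 against Ctrl were targets, a difference between roles that was not tested. Of 21 targets tested, 6 had an unadjusted p under 0.05 in edgeR's quasi-likelihood test, beside 2.84% of all genes, and 10 had one with the GC trend removed, beside 7.84%. Because the list was chosen with earlier results of these data known, these counts are a description and do not test the targets as a set. The groups did not overlap for 8 of the 21, beside 8.65% of all genes. Without removal of the trend, of 9 ligand and activation genes 0 had such a p and 1 did not overlap, of 5 receptor genes 0 and 0, and of 17 SMADs and regulators 0 and 3. With the trend removed, such a p was reached by 1 of 9, 1 of 5 and 2 of 17, beside 7.84% of all genes. The targets were not of 1 sign: among the non-overlapping targets, CCN2, BHLHE40, TAGLN, SNAI1 and SNAI2 had higher values and ID2 and CDKN2B lower values, named here after their values were seen. In edgeR's test, 2 of 21 targets had an unadjusted p under 0.05 for acetazolamide against Ctrl (1.83% of all genes). For laminin 511-E8 against acetazolamide 3 of 21 did (2.34%). With the GC trend removed these were 2 of 21 (4.75% of all genes) and 7 of 21 (5.36%). In each of these comparisons 2 targets did not overlap, beside 5.31% and 6.13% of all genes.

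With the GC trend removed, the targets CCN2 and JUNB passed an adjusted p of 0.05 for laminin 511-E8 against Ctrl, both higher. CCN2 encodes connective tissue growth factor, a matricellular protein. It had 50.4, 45.2 and 48.3 CPM in the laminin 511-E8 libraries, 47.6, 46.3 and 49.1 CPM in the acetazolamide libraries and 36.4, 33.6 and 32.1 CPM in the Ctrl libraries. Both treated groups lay above every Ctrl library and overlapped each other. Both are set against the same Ctrl libraries, the only ones with a stated DMSO volume. The log2 fold change of CCN2 against Ctrl was 0.49 ± 0.11 for laminin 511-E8 and 0.48 ± 0.11 for acetazolamide, with adjusted p values of 0.973 and 1.00 by edgeR's quasi-likelihood test. With the GC trend removed it was 0.45 ± 0.08 for laminin 511-E8 (adjusted p 0.0489) and 0.41 ± 0.08 for acetazolamide (adjusted p 0.675).

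JUNB, an AP-1 transcription factor induced early by TGF-beta, had 62.1, 91.7 and 59.1 CPM in the laminin 511-E8 libraries, 64.1, 50.003 and 77.5 CPM in the acetazolamide libraries and 50.5, 51.5 and 62.3 CPM in the Ctrl libraries, and the groups overlapped. Its log2 fold change for laminin 511-E8 against Ctrl was 0.37 ± 0.21, and with the GC trend removed 0.40 ± 0.07 with an adjusted p of 0.0349 by edgeR's quasi-likelihood test. The calls of both targets depended on the libraries and the tool. Over the 13 fits with the trend removed, CCN2 passed in 4, with adjusted p values of 0.00249 to 0.336, and it lost its call without any 1 of the 3 Ctrl libraries, laminin 511-E8 replicate 1 or 3, or acetazolamide replicate 1 or 3. JUNB passed in 4 of the 13 (0.000552 to 0.243) and lost its call without any 1 of the Ctrl or laminin 511-E8 libraries or acetazolamide replicate 1. With the replicate block and the trend removed, neither passed, with adjusted p values of 0.152 for CCN2 and 0.117 for JUNB. DESeq2 without removal of the trend called CCN2 (adjusted p 0.00796) and not JUNB. The direction was higher in laminin 511-E8 cells in all 31 alternatives for both.

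In the remaining comparisons the listed genes with the smallest p did not pass after adjustment. For acetazolamide against Ctrl these were CCN2, ID1 (log2 fold change 0.30 ± 0.13) and the ligand TGFB3 (0.42 ± 0.22). TGFB3 had 2.97, 2.55 and 3.11 CPM in acetazolamide cells and 2.01, 2.73 and 1.65 CPM in Ctrl, and these ranges overlapped. In laminin 511-E8 against acetazolamide they included the transcription factor SNAI2 (0.38 ± 0.15) and the latent binding protein LTBP2 (0.41 ± 0.17). LTBP2 had 29.4, 36.3 and 35.4 CPM in laminin 511-E8 cells and 27.1, 19.7 and 29.4 CPM in acetazolamide cells, and its adjusted p with the GC trend removed was 0.0928 by edgeR's quasi-likelihood test.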

How the data were processed

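RNA was measured in 9 libraries of H69 cells (3 laminin 511-E8, 3 acetazolamide, 3 Ctrl). The authors deposited unnormalized counts, as whole reads assigned to each gene ID. The submitters' processing notes name GRCh38 as the build, HISAT2 2.2.1 and HTSeq 0.11.0 as tools, and Trimmomatic 0.39 with FastQC 0.11.9 beside them. No source used here gives the annotation release, the strand setting or how reads matching several genes were handled. The 9 genes and the lists were chosen with earlier results of these data known. Exon lengths, GC content and coordinates came from GENCODE release 29 on GRCh38, with lengths for 58366 and GC content for 58312 of the 61541 IDs. Levels were computed as CPM and TPM.

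The groups of the labels were tested in R 4.3.3 by edgeR 4.0.16 (TMM, filterByExpr, robust quasi-likelihood fit to all 9 libraries), with Benjamini-Hochberg adjustment over all genes tested and a threshold of 0.05, after the procedure was tested on simulated data. The GC trend of each library was estimated by local regression (span 0.3) and entered as an offset. DESeq2 1.42.0, limma 3.58.1 (voom), other scalings and filters, a replicate block, the 6 libraries compared and each library left out were the alternatives. From the list of 60 pathway genes, those past the threshold in the fit without or with the GC trend removed were named, or, where none passed, the 3 with the smallest p; 1 gene named by this rule is not reported here. Counts of every replicate pair differed by more than sampling noise, with chi-square values of 5.16 to 102 for each degree of freedom. The labels call the replicates biological without naming separate cultures, so p-values measure the spread between these samples.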

Additional observations from a re-analysis of the deposited data

How the results depend on the processing

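The 9 TGF-beta genes stayed below the threshold in all 31 alternatives of each comparison. The number of genes called among all tested, 0 in each comparison with edgeR, did change. For laminin 511-E8 against Ctrl it was 21 with DESeq2, 52 with the GC trend removed, 151 with the GC trend removed and DESeq2, and 21 with the GC trend removed and limma voom. With each replicate left out in turn and the trend kept, it was 0. Removal of the trend as well gave 9, 56 and 18 without Ctrl replicates 1, 2 and 3, 28, 67 and 57 without acetazolamide replicates 1, 2 and 3, and 2, 25 and 13 without laminin 511-E8 replicates 1, 2 and 3. For acetazolamide against Ctrl it was 7 with DESeq2, 8 with the GC trend removed and DESeq2, and 0 to 3 with each replicate left out, the 3 without acetazolamide replicate 2 with the GC trend removed. For laminin 511-E8 against acetazolamide it was 19 with DESeq2, 25 with the GC trend removed, 96 with the GC trend removed and DESeq2, and 18 with the GC trend removed and limma voom. With each replicate left out and the trend kept, it was 0. Removal of the trend as well gave 19, 30 and 23 without Ctrl replicates 1, 2 and 3, 0, 22 and 18 without acetazolamide replicates 1, 2 and 3, and 0, 9 and 8 without laminin 511-E8 replicates 1, 2 and 3. The cause of the difference between tools was not tested. limma voom without removal of the trend called 0 in each, with 439, 282 and 348 genes at an unadjusted p under 0.05. With the replicate block the counts were 0 in each comparison, and 6, 0 and 0 with the replicate block and the GC trend removed. Same-numbered libraries of different groups deviated with correlations of -0.65 to 0.24 over 9 pairs, and of -0.30 to 0.10 with the GC trend removed. The labels do not say whether an equal number marks a shared day or batch, and these correlations cannot settle it. The rank of the genes by level moved in 32 of 135 alternatives, among them the change to CPM, which does not correct for length. SMAD7 had the fewest reads of the 9 genes, 37 to 104 per library; whether depth set the width of its intervals was not tested.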

Other observations

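The genes whose log2 TMM-scaled CPM ran most like that of a TGF-beta gene over the 9 libraries, among 9127 genes compared, are given as a description, since all points share depth and GC trend. For SKIL these were MTDH, NDFIP2 and CYCS (Pearson r 0.997 each, and 0.965, 0.97 and 0.973 with the GC trend removed). For TGFB2 they were MNS1 (0.967, then 0.882), MNAT1 (0.961, then 0.936) and WAC (0.947, then 0.875). For TGFBI they were TEAD3 (0.983, then 0.658), CERS2 (0.98, then 0.93) and DENND2B (0.978, then 0.877). For SMAD7 they were NBPF12 (0.898, then 0.496), TGFBRAP1 (0.883, then 0.726) and ZFTA (0.877, then 0.55).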
